A study of Mus musculus with 2 samples.

Results

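Indian hedgehog and parathyroid hormone-related protein (PTHrP) signalling was followed through 9 genes of the 32285 counted in single cells of the callus that bridges a broken mouse femur during healing. The members were taken by symbol and are the ligands Ihh and Pthlh, the receptors Pth1r, Ptch1 and Smo, the secreted-ligand trap Hhip, and the transcription factors Gli1, Gli2 and Gli3. All 9 symbols were found once in each of the 2 libraries, named MGJ and MGJ2 in the labels. The callus came from femoral fractures of wild-type mice (C57BL/6J in the study's methods), and the design covered 10 days (n = 5) and 20 days (n = 5) after fracture. The labels assigned neither library to a day, the mice within a library were pooled, and no agent or allele beyond wild type was given. The libraries were therefore described side by side and never compared with each other, and no p-value or SD between animals could be had.

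Indian hedgehog is the hedgehog ligand of the growth plate, made by chondrocytes as they leave the cell cycle and begin to enlarge. It binds PTCH1, which otherwise holds SMO inactive, and the released SMO turns the GLI factors to activation. PTCH1, GLI1 and HHIP are themselves made in response, so their transcripts are common readouts of the signal. In the growth plate Ihh leads to PTHrP production at the joint end, and PTHrP acts on its receptor PTH1R, which couples to the stimulatory G protein and cAMP, to hold chondrocytes back from hypertrophy. Hypertrophic chondrocytes make type X collagen, encoded by Col10a1, and fracture callus passes through the same sequence of cartilage stages on its way to bone.

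The genes lie on 6 mouse chromosomes in GENCODE M21 on GRCm38. Ihh is on the minus strand at chr1:74945315-74951672, Pthlh on the minus strand at chr6:147252101-147264183, and Pth1r on the minus strand at chr9:110722085-110747145. Ptch1 is on the minus strand at chr13:63508328-63573598, Smo on the plus strand at chr6:29735503-29761365, and Hhip on the minus strand at chr8:79965851-80058006. Gli1 is on the minus strand at chr10:127329882-127341974, Gli2 on the minus strand at chr1:118834132-119053619, and Gli3 on the plus strand at chr13:15463235-15730026. Other annotated genes overlap Ptch1, Smo and Gli3 on the same strand, so UMIs of these members could be shared with, or lost to, an overlapping gene. On the opposite strand, other genes overlap Pth1r, Hhip, Gli1, Gli2 and Gli3, and any effect of these on the counts was not tested.

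Promoters are shown for the ligand whose level was highest in high-Col10a1 cells and for a pair of hedgehog response genes that were lower there. The windows are RefSeq sequence of GRCm38.p6, from 250 bases before to 50 bases after an annotated start, read on the strand of the gene. Capitals mark every match, on either strand, to the motifs searched.
Ihh, chr1:74951623-74951922, minus strand: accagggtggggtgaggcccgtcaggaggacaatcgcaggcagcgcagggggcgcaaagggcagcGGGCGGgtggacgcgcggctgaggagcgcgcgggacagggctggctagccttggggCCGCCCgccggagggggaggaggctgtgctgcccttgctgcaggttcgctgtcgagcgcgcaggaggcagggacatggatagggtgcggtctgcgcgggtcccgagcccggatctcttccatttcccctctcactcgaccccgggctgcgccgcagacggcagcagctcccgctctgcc
Ptch1, chr13:63565686-63565985, minus strand: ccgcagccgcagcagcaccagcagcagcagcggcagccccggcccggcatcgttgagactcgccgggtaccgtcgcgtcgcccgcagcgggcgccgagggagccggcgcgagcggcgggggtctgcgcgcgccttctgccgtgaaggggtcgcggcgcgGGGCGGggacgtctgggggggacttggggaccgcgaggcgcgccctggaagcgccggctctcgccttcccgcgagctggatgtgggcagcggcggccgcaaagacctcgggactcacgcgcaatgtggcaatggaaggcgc
Hhip, chr8:80057959-80058258, minus strand: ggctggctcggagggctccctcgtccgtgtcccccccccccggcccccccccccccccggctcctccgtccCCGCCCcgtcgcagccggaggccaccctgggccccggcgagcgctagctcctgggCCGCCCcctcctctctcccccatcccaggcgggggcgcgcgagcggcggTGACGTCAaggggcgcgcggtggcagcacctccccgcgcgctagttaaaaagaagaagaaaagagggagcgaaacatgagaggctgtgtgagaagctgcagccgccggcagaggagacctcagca
Windows were found for 8 of the 9 members, 10 windows in all, and Gli1 had none. The only Ptch1 window lies inside the gene, at a start downstream of its outermost 5′ end at chr13:63573598. Sequence at that end was not searched. The GC box GGGCGG was in 8 of the 10 member windows and in 35.7% of the 32851 windows of all genes. The cAMP response element TGACGTCA was in the Hhip window alone among members and in 1.79% of all windows. The RUNX core ACCACA was in the Gli3 window alone and in 16.8% of all windows, and the GLI consensus GACCACCCA was in 0 member windows and 0.253% of all windows. No motif contained another. A match is a description of letters and not of a bound site.

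UMIs (unique molecular identifiers, each counting 1 RNA molecule) summed to 135304426 over the 14295 barcodes of MGJ, median 5026, and to 61130834 over the 8009 barcodes of MGJ2, median 4952. After removal of barcodes under 200 genes, over 20% mitochondrial UMIs or called as doublets, 13322 and 7568 cells remained, 13 of whose barcode sequences occurred in both libraries. Levels are CPM (the UMIs of a gene summed over the cells of a class, per 1000000 UMIs of that class), with exact Poisson 95% intervals. Every interval given here covers counting error only, not the differences between cells or mice. Cells were clustered with the members left out, and clusters were named from marker genes and written as "-like". Chondrocyte-like cells were 2792 of 13322 cells in MGJ (20.96%, exact binomial 95% interval 20.3 to 21.7) and 136 of 7568 in MGJ2 (1.80%, 1.51 to 2.12). Their median depth was 20799 and 28974.5 UMIs, against 3543.5 and 4803 UMIs in all other cells.

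Chondrocyte-like cells were divided by their own Col10a1 level into low (under 1000 CPM), moderate (1000 up to 10000) and high (10000 or more). These held 1904, 365 and 523 cells in MGJ and 58, 25 and 53 cells in MGJ2, and 292 and 18 cells lay within a factor of 1.5 of a limit. Summed Col2a1, the type II collagen of cartilage, was 51596, 64198 and 48610 CPM in the low, moderate and high stages of MGJ and 52962, 58679 and 31511 in MGJ2. All 16 chondrocyte markers were detected in each MGJ stage, which the naming of the cells from those markers made likely. A chondrocyte-like sub-cluster led by neutrophil genes (236 and 6 cells) was set aside.

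Ihh, the ligand, was highest in the cells with the most Col10a1. Its summed level in MGJ was 21.2 CPM (19.7 to 22.6) in the low stage, 97.7 (91.1 to 104.5) in the moderate and 229 (221 to 239) in the high, from 833, 835 and 2499 UMIs. The levels in MGJ2 were 30.6 (22.7 to 40.5), 121 (96.9 to 149) and 516 (481 to 551), from 49, 89 and 849 UMIs. The order of the stages was the same in both libraries, and no neighbouring intervals overlapped. High over low was 10.8-fold (10.0 to 11.7) in MGJ and 16.8-fold (12.6 to 22.9) in MGJ2.

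The Ihh of MGJ2 rested on few cells. A single cell gave 28.5% of the high-stage UMIs, and 377 CPM remained without it. Single cells also gave 42.7% of the moderate-stage UMIs and 40.8% of the low-stage UMIs, and the levels without them were 71.7 and 18.8. In MGJ no cell of the high stage gave more than 3.32%. Over single cells of the MGJ high stage, Ihh ranged from 0 to 4083 CPM with a median of 76.2, whereas the median cell of the low and moderate stages had none.

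Nearly all Ihh came from the chondrocyte-like class, with 93.4% of the Ihh UMIs of MGJ and 94.6% of those of MGJ2. All other cells of MGJ held 295 Ihh UMIs, which include those of set-aside and unnamed cells. Among the named classes of at least 50 cells, next in order in MGJ were osteoblast-like cells at 7.64 CPM (3.49 to 14.5, 9 UMIs). These were above neutrophil-like cells beyond counting error. Neutrophil-like cells, a type not known to make Ihh, held 1.68 CPM (0.978 to 2.69) in MGJ and 0.697 (0.301 to 1.37) in MGJ2. They also held 633 and 57.6 CPM of Col2a1, so a cartilage transcript was counted in their barcodes. Osteoblast-like cells of MGJ held more Col2a1, 3085 CPM from 3634 UMIs. How much of their Ihh came with cartilage RNA was not tested. No tenocyte-like cell of MGJ had an Ihh UMI, which allows up to 0.716 CPM by the Poisson interval.

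**Figure D1:**
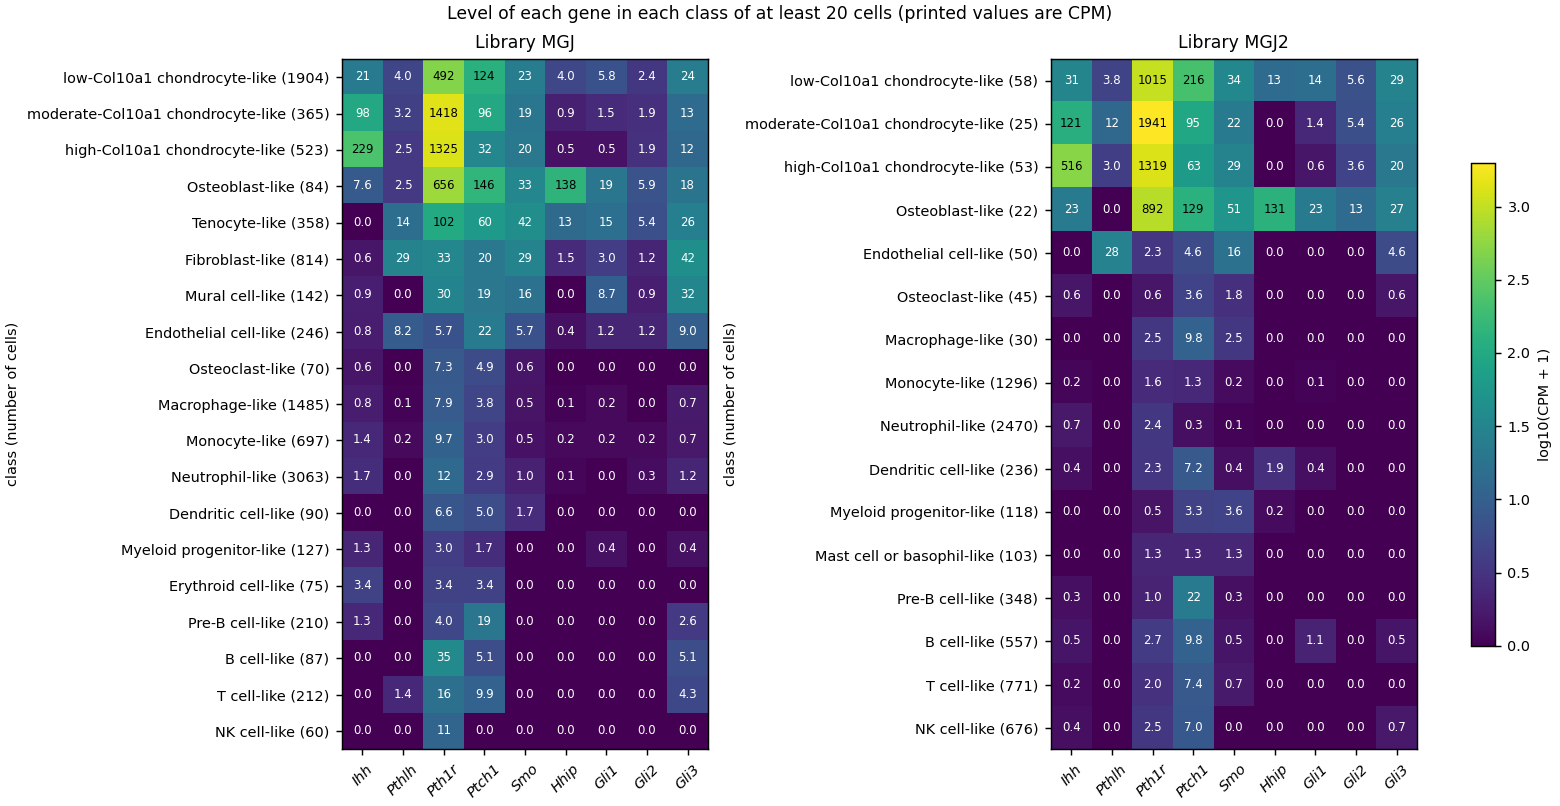
Heat map of the 9 genes (columns) in the Col10a1 stages of chondrocyte-like cells and the other marker-named classes of at least 20 cells (rows), for library MGJ and library MGJ2. Colour is log10(CPM + 1) and printed values are CPM. Ihh is highest in the high-Col10a1 stage of both libraries, at 229 and 516, and Pthlh in MGJ is highest in fibroblast-like cells, at 28.9.

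Pthlh, which encodes PTHrP, was low in cartilage and highest in fibroblast-like cells of MGJ. There its level was 28.9 CPM (26.2 to 31.7), from 434 UMIs in 814 cells, which was 52.1% of the Pthlh UMIs of that library. Tenocyte-like cells followed at 14.4 (11.3 to 18.0) and endothelial cell-like cells at 8.16 (4.99 to 12.6), each below its predecessor beyond counting error. The low, moderate and high chondrocyte stages of MGJ held 3.96 (3.36 to 4.63), 3.16 (2.08 to 4.59) and 2.48 (1.63 to 3.61), so neighbouring stages did not differ beyond counting error, while high over low was 0.626 (0.400 to 0.946). Of the 3 fibroblast-like clusters of MGJ, the one led by Prg4, which encodes the joint lubricant lubricin, was highest at 39.6 CPM in 277 cells, against 21.5 and 22.8 in those led by Clec3b and Mmp10.

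Pthlh in MGJ2 amounted to 34 UMIs in all, and no cell was named fibroblast-like there. The stage levels were 3.75 (1.38 to 8.17), 12.2 (5.58 to 23.2) and 3.04 (0.986 to 7.09), from 6, 9 and 5 UMIs. A single cell gave 88.9% of the moderate-stage UMIs, and 1.42 remained without it. Another gave 91.7% of the endothelial UMIs, leaving 2.43 of 27.7.

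Pth1r, the PTHrP receptor, was present at every stage and, with the settings used here, highest in the moderate one. The levels in MGJ were 492 CPM (485 to 499) in the low, 1418 (1393 to 1443) in the moderate and 1325 (1304 to 1347) in the high stage. In MGJ2 they were 1015 (966 to 1065), 1941 (1842 to 2044) and 1319 (1264 to 1376). Neighbouring stages differed beyond counting error in both libraries. High over low was 2.69-fold (2.63 to 2.75) in MGJ and 1.30-fold (1.22 to 1.39) in MGJ2, so the ratio passed 2 in MGJ and not in MGJ2. Over the alternative settings, high over low in MGJ ranged from 2.32 to 3.08 and moderate over low from 2.76 to 2.93. The order of the moderate and high stages of MGJ was therefore not the same in all of them.

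Over single cells of MGJ, the median Pth1r level was 278 CPM in the low, 1150 in the moderate and 1100 in the high stage, with the highest cells at 6125, 3987 and 14235. Osteoblast-like cells, 84 in MGJ and 22 in MGJ2, held 656 (611 to 704) and 892 (813 to 976), within the span of the cartilage stages in MGJ and below all of them in MGJ2. Chondrocyte-like cells gave 88.4% and 86.6% of the Pth1r UMIs of the libraries, and neutrophil-like cells stood at 12.4 (10.4 to 14.8) and 2.44 (1.62 to 3.52).

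Ptch1, both receptor and response gene, ran opposite to Ihh along the stages. Its levels in MGJ were 124 CPM (120 to 127) in the low, 95.7 (89.2 to 102) in the moderate and 32.4 (29.1 to 36.0) in the high stage, from 4867, 818 and 353 UMIs. MGJ2 held 216 (194 to 240), 94.9 (74.0 to 120) and 62.6 (51.1 to 75.9), from 345, 70 and 103 UMIs. The intervals of the stages did not overlap in MGJ, and the ratio of high to low was 0.262 (0.235 to 0.292) there and 0.290 (0.230 to 0.362) in MGJ2. A single cell gave 62.1% of the high-stage Ptch1 UMIs of MGJ2, and the level without it was 24.1.

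Osteoblast-like cells of MGJ held the highest Ptch1 of that library, 146 CPM (125 to 170), and those of MGJ2 held 129 (99.99 to 163). Tenocyte-like cells of MGJ came between the moderate and high stages at 60.4 (53.8 to 67.5). Pre-B cell-like cells held 18.5 (10.1 to 31.1) in MGJ, from 14 UMIs in 12 cells, and 21.6 (16.6 to 27.7) in MGJ2, from 62 UMIs in 47 cells. In MGJ, 12 of the 14 UMIs lay in the pre-B cell-like cluster led by Igkc (60 cells, 25.6 CPM). The clusters led by Rag1 (123 cells) and Vpreb1 (27 cells) held 1 UMI each.

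Smo, the signal transducer that PTCH1 holds inactive, was nearly even along the stages. It stood at 23.2 CPM (21.8 to 24.8), 18.6 (15.8 to 21.7) and 20.2 (17.6 to 23.1) in MGJ and at 33.8 (25.4 to 44.1), 21.7 (12.4 to 35.2) and 29.1 (21.5 to 38.6) in MGJ2. High over low was 0.870 and 0.863, and tenocyte-like cells of MGJ held the most at 41.7 (36.3 to 47.7), next to osteoblast-like cells at 33.1 (23.5 to 45.3).

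Hhip, which encodes a membrane and secreted protein that binds hedgehog ligands, had its highest level of MGJ in osteoblast-like cells, a minority of which had it. They held 138 CPM (117 to 160) in MGJ, from 162 UMIs in 33 of 84 cells, and 131 (102 to 165) in MGJ2, from 69 UMIs in 8 of 22 cells. This was 34.2% and 59.0% of all Hhip UMIs of the libraries. Chondrocyte-like cells held 172 Hhip UMIs in MGJ, more than the osteoblast-like cells, and 21 in MGJ2. In MGJ the next class was tenocyte-like cells at 13.01 (10.1 to 16.5). The osteoblast-like class rested on the clustering. It was absent from both libraries at a Leiden resolution of 0.5 and from MGJ2 when each library was clustered alone. Its 22 cells in MGJ2 were below the 50 set for a class. Hhip was used neither in the clustering nor as a marker, but was among the 10 leading genes of the class. Those genes had been seen before the naming limits were set.

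In cartilage, Hhip was in the low stage at 4.04 CPM (3.43 to 4.72) in MGJ, above 0.936 (0.404 to 1.84) in the moderate and 0.459 (0.149 to 1.07) in the high. High over low was 0.114 (0.0364 to 0.271), from 5 against 159 UMIs. MGJ2 held 13.1 (8.13 to 20.1) in the low stage, from 21 UMIs of which 47.6% came from 1 cell, and 0 UMIs in the others. Set against a floor of 3 counts per stage, that was at least 3.23-fold lower in the moderate and at least 7.21-fold lower in the high stage.

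Gli1, the activator whose transcription itself answers hedgehog signalling, had the same order of stages as Ptch1 in MGJ. The stages of MGJ held 5.81 CPM (5.09 to 6.62), 1.52 (0.810 to 2.60) and 0.459 (0.149 to 1.07), from 229, 13 and 5 UMIs, and those of MGJ2 14.4 (9.12 to 21.6), 1.36 (0.0343 to 7.56) and 0.607 (0.0154 to 3.38), from 23, 1 and 1 UMIs. High over low was 0.0790 (0.0254 to 0.187) and 0.0422 (0.00103 to 0.260). High over moderate in MGJ2 was 0.448 (0.00570 to 35.1), so no order of these stages could be read there. Outside cartilage in MGJ, osteoblast-like cells at 18.7 (11.7 to 28.3), tenocyte-like cells at 14.9 (11.8 to 18.7) and mural cell-like cells at 8.68 (4.16 to 16.0) were neighbours that did not differ beyond counting error. Neutrophil-like cells had 0 Gli1 UMIs in both libraries, which allows up to 0.364 and 0.321 CPM.

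Gli2 and Gli3, the factors that act before Gli1 and of which GLI3 serves mainly as a repressor, were not called along the stages. Gli3 held 23.9 CPM (22.4 to 25.5), 13.3 (10.997 to 16.0) and 12.1 (10.1 to 14.4) in MGJ and 28.8 (21.1 to 38.4), 25.8 (15.5 to 40.2) and 20.0 (13.8 to 28.1) in MGJ2. Its ratio of high to low was 0.507 (0.419 to 0.609) in MGJ, close to the limit of 0.5 and 0.493 with the set-aside sub-cluster kept, and 0.697 (0.432 to 1.11) in MGJ2. Gli2 held 2.39, 1.87 and 1.93 in MGJ and 5.63, 5.43 and 3.64 in MGJ2, from 94, 16 and 21 UMIs and from 9, 4 and 6 UMIs. Fibroblast-like cells of MGJ held the most Gli3 at 42.5 (39.2 to 45.9), followed by mural cell-like cells at 32.1 (22.6 to 44.3), and these did not differ beyond counting error.

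**Figure D2:**
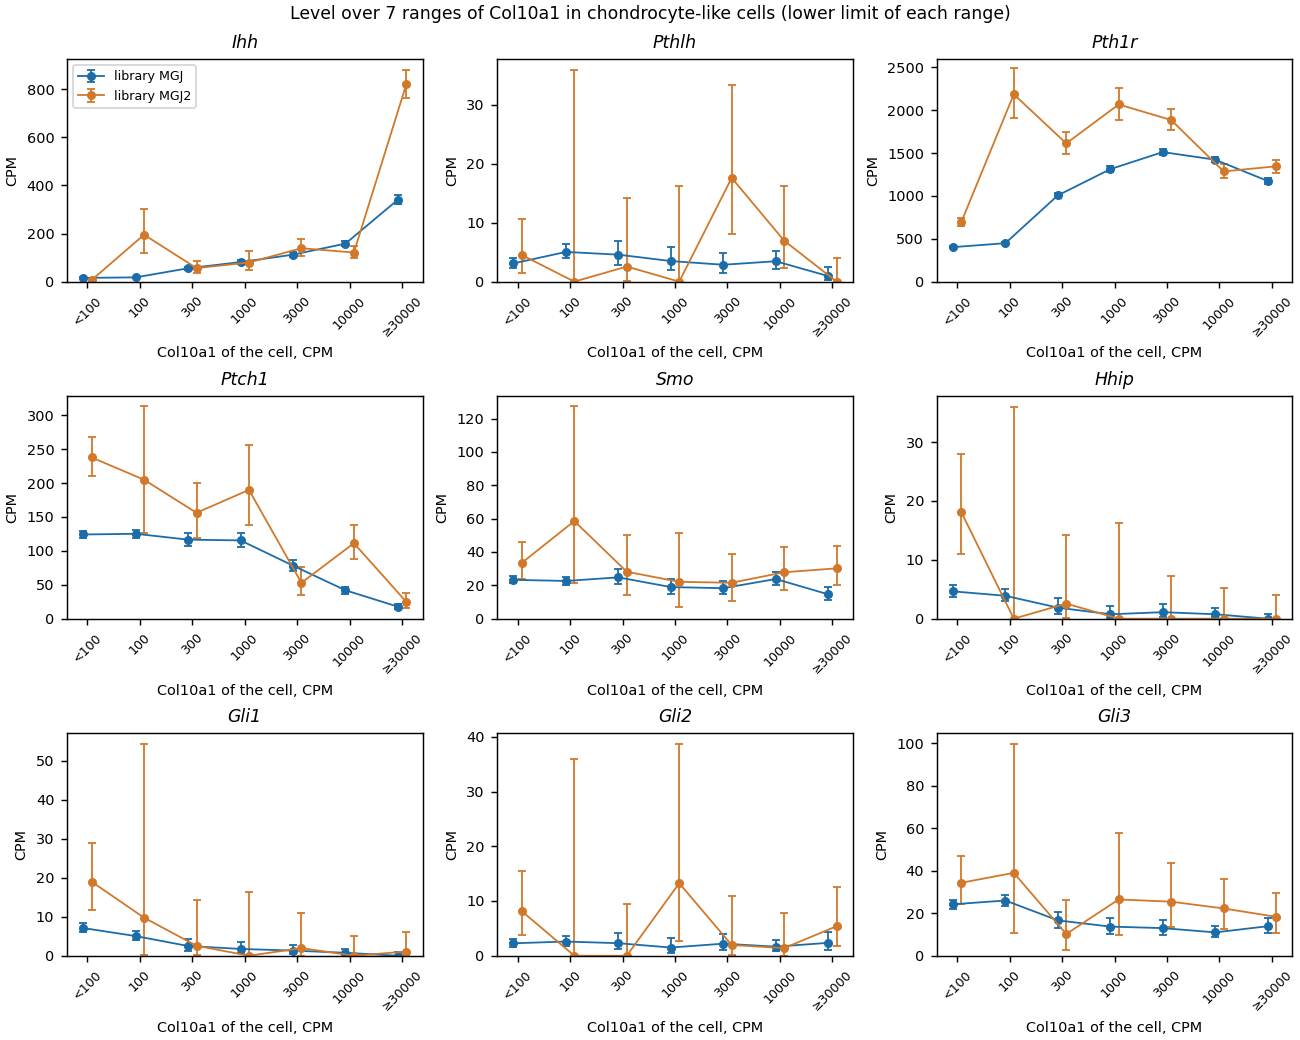
Level of Ihh, Pth1r, Ptch1 and the other members (CPM) in chondrocyte-like cells by the range of the cell's own Col10a1 level, for each library; points are summed levels and bars exact Poisson 95% intervals. In MGJ, Ihh goes from 15.5 below 100 CPM of Col10a1 to 341 at 30000 or more, and Ptch1 from 124 to 17.7.

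Finer ranges of Col10a1 placed the changes of the members at different points. In MGJ the level of Ihh was 15.5 CPM below 100 of Col10a1 (1023 cells), 17.6 from 100 to 300, 55.6 from 300 to 1000, 81.3 from 1000 to 3000, 112 from 3000 to 10000, 158 from 10000 to 30000 and 341 from 30000 on (228 cells). Ihh was thus already above its lowest range within the low stage. Pth1r over the same ranges was 402, 448, 1006, 1312, 1511, 1422 and 1174, highest in a middle range. Ptch1 was 124, 125, 117, 115, 78.2, 41.8 and 17.7, level over the first 4 ranges and lower in each after that. Gli1 and Hhip were 7.10 and 4.64 in the lowest range and had 0 UMIs in the highest. The ranges of MGJ2 held 43, 3, 12, 8, 17, 23 and 30 cells, and no steady order. Ihh there was 6.33, 195, 56.3, 79.5, 139, 121 and 821, and Ptch1 was 238, 205, 156, 189.9, 52.9, 111 and 24.8.

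Cells of other types and depth were checked beside the stages. The 9 osteoblast markers summed to 30.04, 88.2 and 175 CPM in the low, moderate and high stages of MGJ and to 206, 859 and 352 in MGJ2, against 2791 and 2077 in osteoblast-like cells. Of these markers, 8 were detected in each MGJ stage, Sost being at 0 in the low and moderate and Slc36a2 in the high, and 4, 5 and 5 in the stages of MGJ2. The 10 fibroblast markers, all detected in MGJ, summed to 987, 380 and 218 there, and in MGJ2, with 8, 5 and 7 detected, to 651, 107 and 122, so they were highest in the low stage together with Ptch1, Gli1 and Hhip. Their part in the result was not tested. Neutrophil markers summed to 443, 305 and 368 in MGJ and to 208, 235 and 203 in MGJ2.

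Read as shares of cells at equal depth, the stages kept this order. Each cell was thinned to 10000 UMIs, which left 1684, 318 and 440 cells of MGJ and left out 220, 47 and 83 shallower ones. Ihh was then found in 8.97%, 32.1% and 55.0% of low, moderate and high cells, against 12.4%, 43.0% and 64.2% without thinning. Ptch1 was found in 54.5%, 42.5% and 17.3%, against 67.4%, 60.5% and 31.9%. Pth1r was found in 80.6%, 98.4% and 97.3%, and Gli1 in 4.69%, 1.26% and 0.227%. MGJ2, with 50, 21 and 48 cells, gave 14.0%, 38.1% and 56.3% for Ihh and 60.0%, 33.3% and 22.9% for Ptch1. At 2000 UMIs per cell, Ihh was in 8.93% of chondrocyte-like and 0.220% of neutrophil-like cells of MGJ, and in 18.8% and 0.267% of those of MGJ2, and the same shares of Pth1r were 56.2% and 2.64% in MGJ.

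**Figure D3:**
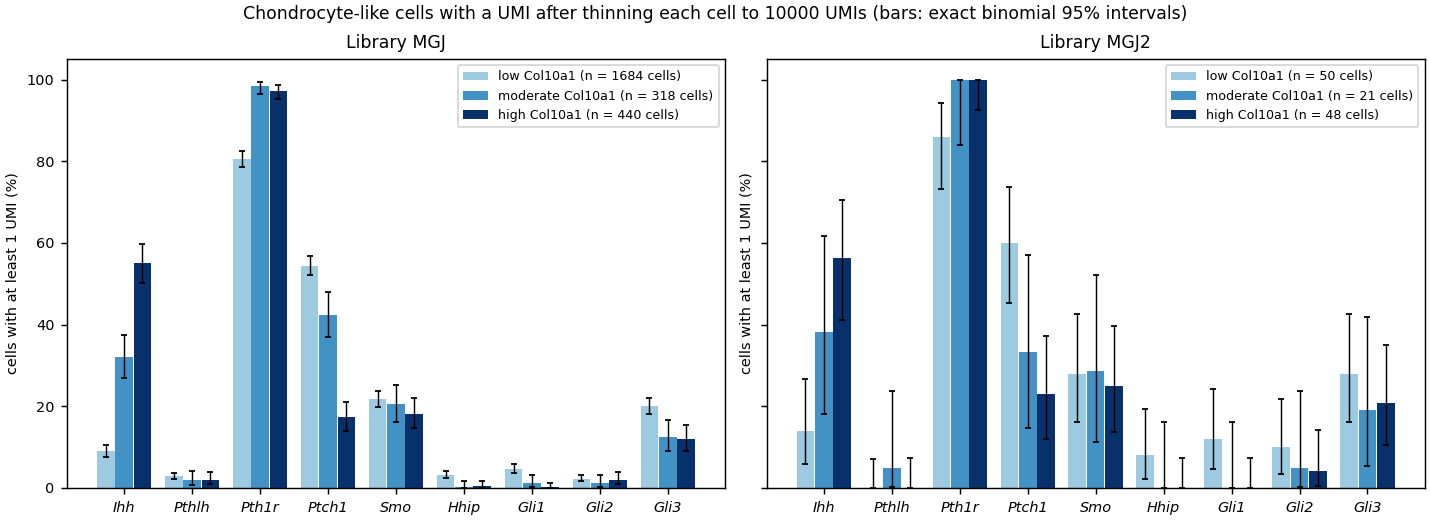
Share of cells with at least 1 UMI of a gene (percent) after thinning every cell to 10000 UMIs, by Col10a1 stage and library, with exact binomial 95% intervals. In MGJ the share for Ihh goes from 8.97% to 55.0% and that for Ptch1 from 54.5% to 17.3%.

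Ligand and receptors were also counted in the same cells. Among low-stage cells of MGJ thinned to 10000 UMIs, Pth1r was found in 145 of 151 cells with an Ihh UMI (96.0%, 91.6 to 98.5) and in 1213 of 1533 without (79.1%, 77.0 to 81.1). Ptch1 was found in 64.2% (56.0 to 71.9) of the former and 53.5% (51.0 to 56.0) of the latter. In the high stage Ptch1 was in 17.8% (13.2 to 23.2) of cells with Ihh and 16.7% (11.8 to 22.6) of those without, so no difference was detectable at this depth. In the moderate stage it was in 46.1% (36.2 to 56.2) and 40.7% (34.1 to 47.6). In MGJ2 the direction in the low stage was the opposite, 42.9% (9.90 to 81.6) of 7 cells with Ihh and 62.8% (46.7 to 77.0) of 43 without, with overlapping intervals.

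Chondrocyte-like cells as a whole, set against all other cells, were higher in 4 of the 9 members in MGJ, where 14.0% of the 14737 genes compared were higher by a ratio of at least 2. These were Ihh at 17.5-fold, Pth1r at 9.45-fold, Ptch1 at 4.50-fold and Gli2 at 2.22-fold. Pthlh alone was lower, at 0.417, and 25.0% of genes were lower by as much. In MGJ2 all 9 members were higher, from 2.96-fold for Hhip to 238-fold for Ihh, and 0 lower, with 19.9% and 31.7% of the 13056 genes compared called higher and lower. A gene entered these backgrounds with at least 50 UMIs in the cells compared, which 9 members did in MGJ and 6 in MGJ2. The other cells included 3063 and 2470 neutrophil-like cells and also the 236 and 6 set-aside cells. The latter held 252081 of the 296067 Col2a1 UMIs of the other cells in MGJ and 9783 of 15429 in MGJ2. Over the alternative settings the MGJ ratio ranged from 14.2 to 67.5 for Ihh, 6.72 to 20.9 for Pth1r, 3.33 to 8.08 for Ptch1 and 1.70 to 3.63 for Gli2. MGJ held 814 fibroblast-like and 358 tenocyte-like cells, whereas MGJ2 held 5 tenocyte-like cells and no fibroblast-like cell. The other cells of MGJ2 therefore lacked the class with the highest Pthlh of MGJ.

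The moderate stage over the low was higher in 2 members of MGJ, Ihh at 4.62-fold and Pth1r at 2.88-fold, beside 2.88% of 12081 genes, and lower in 2, Gli1 at 0.262 and Hhip at 0.232, beside 6.61%. In MGJ2 it was higher in Ihh at 3.94-fold and in Pthlh at 3.25-fold, most of it from the single cell given above, beside 3.82% of 4845 genes, and lower in Ptch1 at 0.440, Gli1 at 0.0943 and Hhip, beside 4.66%. The high stage over the low was higher in Ihh and Pth1r in MGJ, beside 7.56% of 12287 genes, and in Ihh alone in MGJ2, beside 7.23% of 5837. It was lower in Ptch1, Gli1 and Hhip in both, 3 of the 9 members, beside 10.8% and 9.65% of genes. In the stage comparisons 9 members passed the minimum of 50 UMIs in MGJ and 5 in MGJ2. Of those 5 in MGJ2, 1 was lower and 1 higher in each comparison, Ptch1 and Ihh, while Gli1, Hhip and Pthlh lay under the minimum that the percentages of genes rest on.

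**Figure D4:**
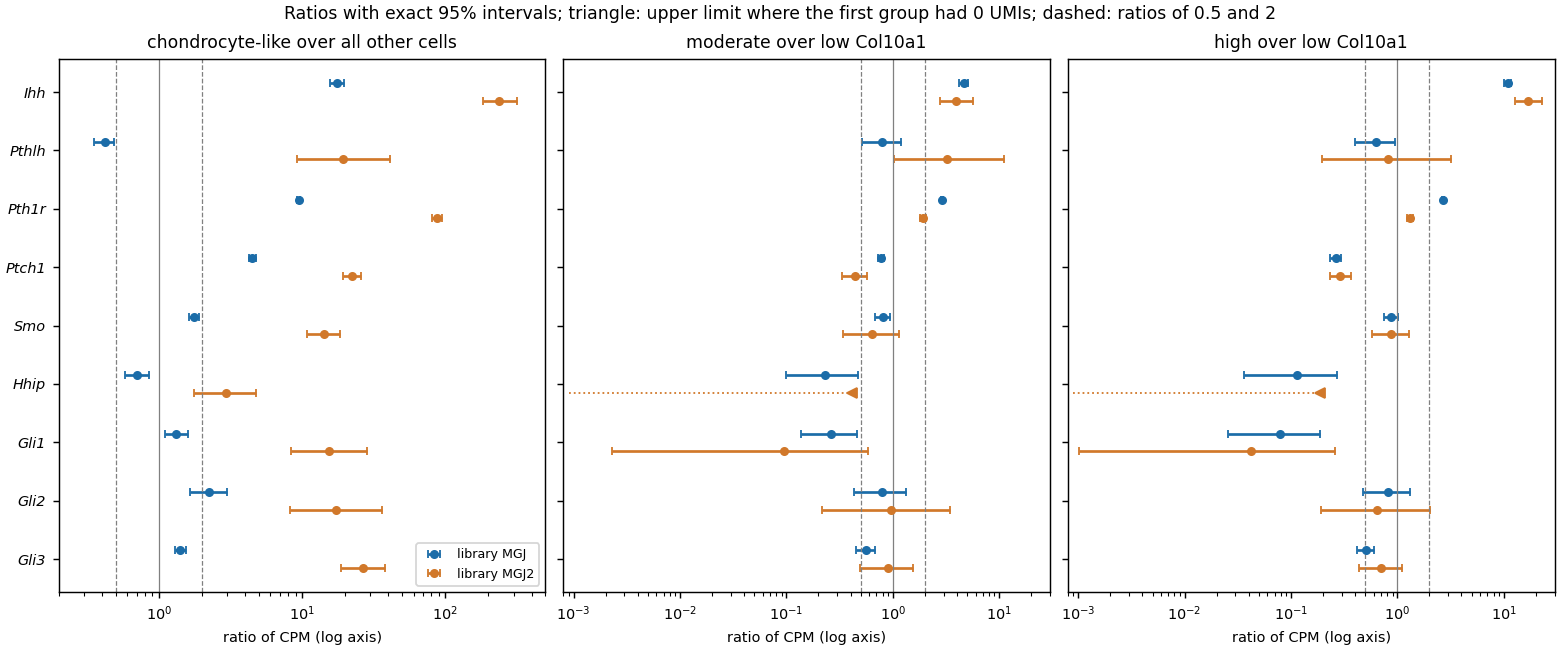
Ratio of summed levels (log axis) of each of the 9 genes for chondrocyte-like over all other cells, moderate over low and high over low Col10a1, by library, with exact conditional 95% intervals, dashed lines at ratios of 0.5 and 2, and triangles at the upper limit where the first group had 0 UMIs. Ihh lies at 10.8 and 16.8 and Ptch1 at 0.262 and 0.290 for high over low.

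Within the chondrocyte-like cells of MGJ, sub-clusters made without the members differed in their levels of ligand and response genes, and some held both. The one led by Dapk2, Pank1 and Kirrel3 (173 cells) held Ihh at 239 CPM, Ptch1 at 13.8 and Pth1r at 656. That led by Ibsp, Aldh1a3 and Phex (533 cells) held Ihh at 176, Ptch1 at 50.4 and Pth1r at 1565. Ihh and Ptch1 were both well represented in the one led by Smim5, Kctd4 and Id1 (282 cells), at 95.1 and 138, and in the one led by AW112010, Ppa1 and Il17b (242 cells), at 74.0 and 150. A sub-cluster led by the mitotic gene Ube2c (106 cells) held Ihh at 3.004 and Ptch1 at 131. In MGJ2 the sub-cluster led by Smim5 (32 cells) also held both, Ihh at 117 and Ptch1 at 314. That led by Ibsp (25 cells) held 433 and 101, and that led by Dapk2 (53 cells) held 351 and 14.6.

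Genes with the most similar profile were ranked by Pearson correlation of log2(CPM + 10) over 32 profiles, the classes and stages of both libraries, which share 2 libraries and differ in depth. For Ihh these were Loxl4 (r = 0.982), Dhx58os (0.977) and Wnk4 (0.974) among 10119 genes. Pcolce2 (0.978), Tnfrsf11b (0.9746) and Fam180a (0.974) were nearest to Pth1r, Tnfrsf11b being the decoy receptor osteoprotegerin. Irs1 (0.942), Sema3d (0.931) and Sdk2 (0.929) were nearest to Ptch1. Gli1 was nearest to Scarf2 (0.885), Cdh2 (0.876) and Twist1 (0.850), Hhip to Ifitm5 (0.861), Tmem119 (0.825) and Bglap2 (0.787), and Pthlh to Gas6 (0.883), Tgfbr3 (0.873) and Fbln5 (0.868). Ifitm5 and Bglap2 are among the osteoblast markers used to name cells, and Pthlh, Gli1 and Hhip had 34, 47 and 117 UMIs in MGJ2.

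The other genes of the pathways were read from 6 lists of 38 genes. High over low Col10a1, 29 of them passed the minimum of 50 UMIs in MGJ. There 3 were higher and 12 lower, beside 7.56% and 10.8% of all genes compared. In MGJ2 13 passed, 2 being higher and 4 lower, beside 7.23% and 9.65% of all genes. For moderate over low, 3 were higher and 3 lower of 29 in MGJ, beside 2.88% and 6.61%. In MGJ2 2 were higher and 3 lower of 12, beside 3.82% and 4.66%. Chondrocyte-like over other cells, 11 were higher and 4 lower of 31 in MGJ, beside 14.0% and 25.0%. In MGJ2 13 were higher and 4 lower of 23, beside 19.9% and 31.7%.

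Among genes of ligand release, Scube3, whose family of secreted proteins helps free lipid-bound hedgehog, was higher in the high stage at 4.40-fold (3.98 to 4.85) in MGJ and 11.5-fold (6.02 to 24.5) in MGJ2. Scube2 was lower in MGJ at 0.183 (0.0961 to 0.318). Hhat, which palmitoylates hedgehog proteins, was lower at 0.323 (0.210 to 0.480) in MGJ, and in MGJ2, under the minimum of 50 UMIs, stood at 0.0719 (0.00829 to 0.286) from 2 against 27 UMIs. Disp1, which exports the ligand, stood at 1.79 (1.52 to 2.11) and 1.88 (0.974 to 3.77), under the limit of 2.

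The 3 co-receptors that passed the minimum in MGJ were each lower in the high stage, beside 10.8% of all genes compared. Cdon was at 0.374 (0.303 to 0.458), Boc at 0.392 (0.251 to 0.588) and Gas1 at 0.216 (0.139 to 0.320). In MGJ2 Cdon was at 0.354 (0.219 to 0.557). Among response genes, Ccnd1, the G1 cyclin, was lower at 0.488 (0.435 to 0.545) in MGJ, whereas Bcl2, an inhibitor of apoptosis, was higher there at 3.19 (2.73 to 3.73) and at 0.780 in MGJ2. Sufu, which restrains GLI factors in the cytoplasm, was at 0.471 (0.287 to 0.736) in MGJ.

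On the side of the PTHrP receptor, Mef2c, a driver of hypertrophy, was higher in the high stage at 4.76-fold (4.54 to 4.99) in MGJ and 2.39-fold in MGJ2. Hdac4, which represses MEF2C, was lower at 0.453 (0.375 to 0.543) and 0.476, and Zfp521, a repressor in the PTHrP response, was lower at 0.311 (0.223 to 0.423) and 0.388. Gnas, which encodes the stimulatory G protein alpha subunit, was at 1.07 (1.05 to 1.09) and 1.04. The list of 8 genes had 1 higher and 3 lower in MGJ, beside 7.56% and 10.8% of all genes compared.

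**Figure D5:**
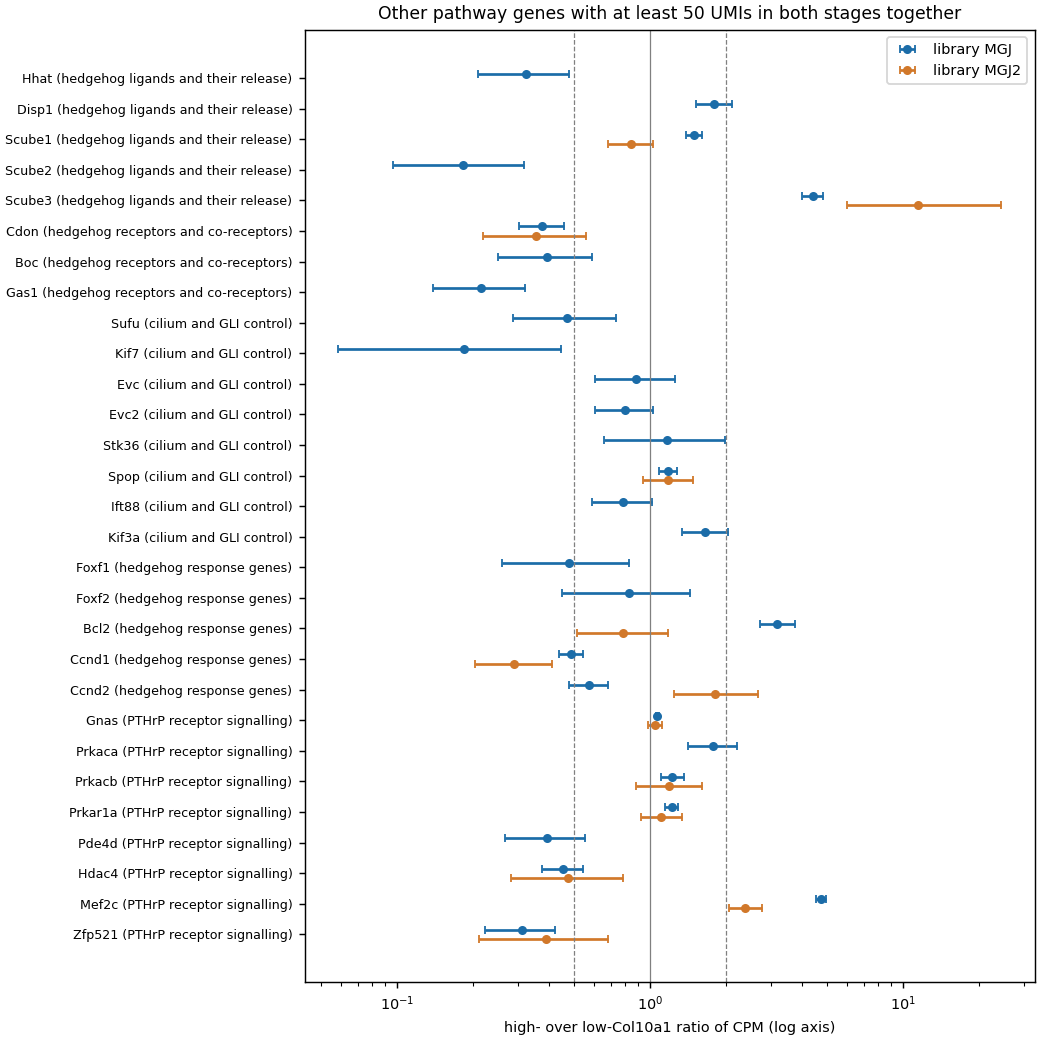
Ratio of high over low Col10a1 (log axis) for the other pathway genes with at least 50 UMIs in both stages together, grouped by list and library, with exact conditional 95% intervals. In MGJ, Scube3 and Mef2c lie at 4.40 and 4.76, and the co-receptors Cdon, Boc and Gas1 between 0.216 and 0.392.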

How the data were processed

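Single-cell RNA-seq libraries were made with the 10x Genomics Chromium 3′ version 3 chemistry, with a target of 5000 cells, and sequenced on a NovaSeq 6000. The authors deposited filtered matrices of raw UMI counts made with Cell Ranger 4.0.0, with no normalization, and the submitters' notes name GRCm38, Cell Ranger and Seurat. Of the 32285 gene identifiers, 32158 (99.6%) were found in GENCODE M21.

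Barcodes with under 200 genes (371 in MGJ and 70 in MGJ2), over 20% mitochondrial UMIs (464 and 133) or called as doublets by Scrublet (138, 1.03%, and 238, 3.05%) were removed. Both libraries were clustered together with scanpy 1.11.5, leidenalg 0.10.2 and igraph 0.11.9 (2000 variable genes, 30 components, 15 neighbours, resolution 1, then 0.5 within clusters of at least 200 cells), without the 9 members and 38 pathway genes. The 85 clusters were named from 23 lists of 151 markers, 69 took a name, and 2460 and 687 cells stayed unnamed. The naming limits were set after the leading genes of clusters had been seen, and Ihh and Hhip were among the leading genes of some, Hhip in the osteoblast-like cluster. Of the clusters, 53 had over 90% of their cells from 1 library.

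A gene was called higher or lower at a ratio of at least 2 or at most 0.5, with 0 counts set to a floor of 3 and no call where both groups were at or under the floor. No test was made, since each library is 1 sample. Poisson, conditional binomial and Clopper-Pearson 95% intervals (Python 3.11.15, numpy 2.4.6, scipy 1.17.1, pandas 2.3.3, scikit-learn 1.9.0, matplotlib 3.10.9) cover counting error only. Ratio and call functions were run on simulated Poisson counts, the model that the intervals assume. The simulation had no spread between cells or mice, so it cannot show how the intervals fare with such spread. The 9 members, the pathway genes with at least 200 UMIs in chondrocyte-like cells and the 3 genes most like each of 6 members could be named. The members and lists were chosen with earlier results of these data known. Of 14 alternatives tried, 1 was added after seeing the data.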

Additional observations from a re-analysis of the deposited data

Results flagged for a closer look

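UMIs of the 9 genes were also present in barcodes that no comparison used, those removed for few genes, mitochondrial UMIs or doublet calls. In MGJ the 973 removed barcodes held 1423 such UMIs, 385 CPM (366 to 406), above the 0.813 that a count of 3 would give and below the 536 of the kept cells. In MGJ2 the 441 removed barcodes held 93, 27.9 CPM (22.6 to 34.2), above 0.901 and below the 147 of the kept cells.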

How the results depend on the processing

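No paired analysis was possible because each library is 1 sample of no assigned group and no test was made. Of 120 counts of members recomputed under 14 alternatives, 117 stayed within a factor of 1.5 of the reported count. With every cell weighted equally, 7 members instead of 4 were higher in chondrocyte-like cells of MGJ, and the Hhip ratio there turned from 0.705 to 1.67. With the neutrophil-led sub-cluster kept, 1 member instead of 2 was lower in the moderate stage of MGJ. With chondrocyte-like clusters divided and named again, an alternative chosen after seeing the data, 1 member instead of 2 was higher in the moderate stage of MGJ2, Gli1 in chondrocyte-like over other cells of MGJ turned from 1.32 to 0.992, and Pthlh in moderate over low of MGJ2 from 3.25 to 0. With Col10a1 limits of 500 and 5000 that Pthlh ratio was 0.284. In each case the cause was not tested. Of 612 ratios, 514 stayed within the interval of the reported ratio, 94 left it and 4 whose interval excluded 1 turned. High over low ranged for Ihh from 9.63 to 14.0 in MGJ and 12.6 to 17.8 in MGJ2, for Ptch1 from 0.192 to 0.330 and 0.122 to 0.312, for Gli1 from 0.0254 to 0.109 and 0.0232 to 0.0564, and for Hhip in MGJ from 0.0300 to 0.427. Hhip in moderate over low of MGJ ranged from 0.130 to 0.729, the latter with the neutrophil-led sub-cluster kept. Gli2 in MGJ2 reached 0.447 in high over low with limits of 500 and 5000, and 0.344 in moderate over low with clusters named again, both from few UMIs. The depth of MGJ2, with 136 chondrocyte-like cells, limits Pthlh, Gli1, Gli2 and Hhip there.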

Other observations

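Ptch1 in pre-B cell-like cells was higher per Col2a1 UMI than in neutrophil-like cells in both libraries. Pre-B cell-like cells held 31.2 Ptch1 UMIs per 1000 Col2a1 UMIs (16.9 to 52.9) in MGJ and 521 (377 to 714) in MGJ2, against 4.53 (3.03 to 6.51) and 6.05 (1.64 to 15.6) in neutrophil-like cells and 1.94 (1.89 to 1.99) and 2.88 (2.64 to 3.14) in chondrocyte-like cells. T cell-like cells held 15.02 (6.01 to 31.2) and 140 (91.9 to 205), and B cell-like cells 5.99 (0.151 to 33.8) and 130 (75.1 to 214), and monocyte-like cells 6.23 (3.31 to 10.7) and 38.4 (22.2 to 62.1). Their intervals overlapped that of neutrophil-like cells in MGJ and not in MGJ2. In MGJ2, where these classes had more Ptch1 UMIs, 62 UMIs in pre-B cell-like cells came from 47 cells. In MGJ, 12 of the 14 Ptch1 UMIs of pre-B cell-like cells came from the cluster led by Igkc.

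A small chondrocyte-like sub-cluster of MGJ led by Saa1, which encodes an acute-phase protein (57 cells), held Hhip at 19.8 and Pthlh at 15.04 CPM, and that led by Col8a1 (337 cells) held Gli1 at 9.47. Both were singled out after their values were seen.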
